A study of Rhizophagus irregularis DAOM 181602=DAOM 197198 with 30 samples.

Results

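Gene model 350230's predicted product in the arbuscular mycorrhizal fungus Rhizophagus irregularis is a RING-type E3 ubiquitin ligase, and the model is 1 of 30282 in the deposited tables. It is written Gloin1_350230 below, and other models likewise, after the genome code and protein number of their deposited identifiers. The model was chosen by its identifier, but it was proposed with its measured values in these libraries already known, its higher level in spores treated with GR24 among them. Its treatment differences are therefore given as a description with no test. GR24 is a synthetic strigolactone, and strigolactones are plant hormones that roots also release into soil, where germinating spores of these fungi sense them.

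RNA of germinated spores of strain DAOM197198 was sequenced. In the time course, cultures of 80000 spores in 40 ml of liquid medium, germinated for 2 d in the dark with 2% CO2, received GR24 at 1e-06 M or its solvent acetone at 1 in 1000, and RNA was taken after 1 h, 2 d, 7 d or 14 d. In a separate set, 60000 spores were kept for 14 d on cellophane over carrot hairy roots (Daucus carota, clone DC1), so that they met what the roots exuded. The controls of this set lay over the same kind of medium with no roots. Both groups of this set had 2% CO2 and 1% sucrose. Of the 30 samples in the labels, 25 had a column and 5 were not analysed here. The libraries numbered 3 for GR24 and 2 for acetone at 1 h, 2 and 3 at 2 d, 2 and 2 at 7 d, and 3 and 3 at 14 d, with 3 for root exudates and 2 for no roots. The labels do not say whether replicates were separate cultures, so the errors and p-values cover the spread between these samples, which may be technical.

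Sample titles set the groups used here. The headings of the root set's table disagree with them, placing the libraries titled root exudates under the control heading and the reverse, and every direction given for that comparison would turn if the headings were right. Gene reads per library ranged from 5786080 to 11812317, and between 0.122% and 1.09% of them matched several models. All reads of Gloin1_350230 were unique to it in 25 of 25 libraries, from 461 to 8369 reads per library, so counting error was small beside the differences described. In bulk RNA, fewer cells of a type and less RNA per cell cannot be told apart.

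E3 ubiquitin ligases choose the proteins that are tagged with ubiquitin. A ubiquitin-activating enzyme (E1) passes ubiquitin to a conjugating enzyme (E2), and a RING domain, a zinc-binding fold, holds that E2 next to the substrate; tagged proteins are often broken down by the proteasome. In plants, strigolactone signalling works through an F-box protein, the substrate-binding part of a cullin-RING E3 ligase. That is background from plants and was not examined in the fungus.

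The annotation of Gloin1_350230 gave a model of 1500 bases with 2 kinds of domain, a RING-type zinc finger, listed 4 times, and the N-terminal domain of the Lon (S16) peptidases, listed 2 times. The eukaryotic orthologous group assigned to it was a predicted E3 ubiquitin ligase. Its best match was a fungal protein named for the domain of ATP-dependent protease La, another name for Lon. No ATPase core and no peptidase active site was listed for it, whereas full Lon proteases carry both. In animals, proteins with the same pair of domains are known as LON peptidase N-terminal domain and RING finger (LONRF) proteins.

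The RNA of Gloin1_350230 was more abundant with GR24 at every time. Levels are given as CPM, the count of a gene scaled by all gene reads of its library, with TMM scaling, which corrects library totals for composition over the 25 libraries together. After 1 h, the GR24 libraries held 884.6, 834.5 and 900.5 CPM and the acetone libraries 166.2 and 160.1 CPM. The mean was 873 ± 34.5 CPM with GR24 (SD, n = 3) and 163 ± 4.31 CPM with acetone (SD, n = 2). This was the highest group level of all 10 groups, reached within the first hour. The fitted log2 fold change was 2.43 ± 0.069 (SE), a ratio of 5.40.

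After 2 d, the GR24 libraries held 446.5 and 455.6 CPM and the acetone libraries 92.8, 76.8 and 81.8 CPM. The log2 fold change was 2.43 ± 0.0835 (SE), so the ratio of 5.38 was close to that at 1 h, although both levels were lower. After 7 d, the GR24 libraries held 344.5 and 341.8 CPM and the acetone libraries 81.3 and 79.1 CPM. The log2 fold change was 2.10 ± 0.0901 (SE), a ratio of 4.28. After 14 d, the GR24 libraries held 329.4, 321.3 and 393.0 CPM and the acetone libraries 116.1, 127.8 and 138.1 CPM. This gave the smallest of the 4 GR24 values, a log2 fold change of 1.44 ± 0.0897 (SE) and a ratio of 2.72. At none of the 4 times did a GR24 library overlap an acetone library.

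The log2 fold change of Gloin1_350230 was among the larger ones at each time. Counting itself, 55 of 13967 tested models rose at least as much at 1 h, 20 of 14704 at 2 d, 70 of 14269 at 7 d and 43 of 14080 at 14 d. The share of all tested models past an adjusted p of 0.05 and higher with GR24 was 7.05% at 1 h, 1.02% at 2 d, 4.31% at 7 d and 1.29% at 14 d, and nothing about Gloin1_350230 is read from these shares since its GR24 values were used in choosing it. The authors' deposited table of weighted-proportions fold changes lists 5.24 at 1 h, 5.12 at 2 d, 4.36 at 7 d and 2.76 at 14 d for the model.

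**Figure D1:**
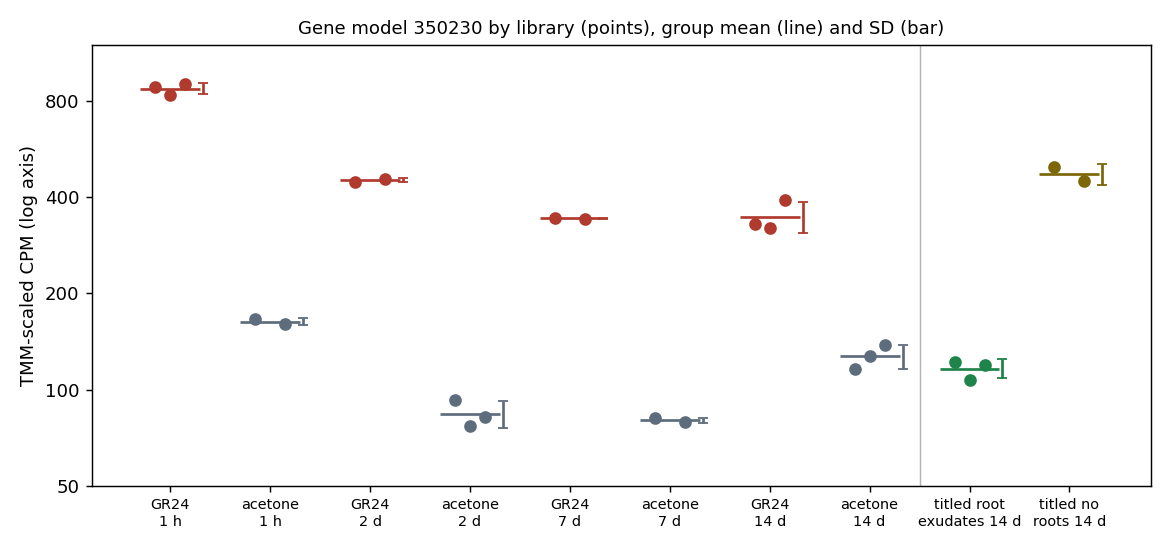
TMM-scaled CPM of Gloin1_350230 (log axis) in each library, by group; points are libraries, lines group means and bars the SD. The GR24 libraries lie between 321.3 and 900.5 CPM, above every acetone library (76.8 to 166.2 CPM), and the libraries titled no roots (447.8 and 497.0 CPM) lie above those titled root exudates (107.4 to 122.2 CPM).

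In the root set, Gloin1_350230 was lower in the libraries titled root exudates. They held 122.2, 107.4 and 119.4 CPM, against 497.0 and 447.8 CPM in the libraries titled no roots. The groups did not overlap, and the means were 116 ± 7.89 CPM (SD, n = 3) with root exudates and 472 ± 34.8 CPM (SD, n = 2) with no roots. The log2 fold change was -2.03 ± 0.0831 (SE), so the direction was opposite to that with GR24 when the titles are followed. Of 14752 tested models, 203 fell at least as much, counting Gloin1_350230. Across all tested models, 7.46% were higher and 7.75% lower with root exudates at an adjusted p under 0.05. The authors' deposited table gives a fold change of 4.26 for the libraries headed as root exudates over those headed as controls, which is the reverse of the titles. The root set differs from the time course in medium, support and spore number, so the order of levels given next across both sets is only a description.

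In order of mean level, the groups ran from GR24 at 1 h, through no roots, GR24 at 2 d, GR24 at 14 d (348 ± 39.3 CPM, SD, n = 3), GR24 at 7 d (343 ± 1.87 CPM, SD, n = 2), acetone at 1 h, acetone at 14 d (127 ± 11.0 CPM, SD, n = 3), root exudates and acetone at 2 d (83.8 ± 8.22 CPM, SD, n = 3) to acetone at 7 d (80.2 ± 1.55 CPM, SD, n = 2). If the headings of the root set are right and its titles wrong, no roots and root exudates change places in this order. The ranges of neighbours overlapped for no roots and GR24 at 2 d, for GR24 at 14 d and 7 d, for acetone at 14 d and root exudates, and for acetone at 2 d and 7 d. The other neighbours did not overlap.

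The time steps of Gloin1_350230 are also a description with no test, since the values of all libraries were known when it was chosen and the acetone libraries are the controls of the GR24 comparisons. Within acetone, the log2 fold changes were -0.97 ± 0.0817 from 1 h to 2 d, -0.06 ± 0.0868 from 2 d to 7 d and 0.67 ± 0.086 from 7 d to 14 d (SE). The acetone libraries at 2 d all lay below those at 1 h, those at 2 d and 7 d overlapped, and the 3 at 14 d all lay above the 2 at 7 d. For scale, 20.7% of all 15712 models tested in the acetone steps were higher and 18.7% lower at 2 d than at 1 h by edgeR's quasi-likelihood test at an adjusted p under 0.05. From 2 d to 7 d the shares were 12.1% higher and 13% lower, and from 7 d to 14 d 10.4% and 11.5%.

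Within GR24 the steps had log2 fold changes of -0.96 ± 0.0778 from 1 h to 2 d, -0.40 ± 0.084 from 2 d to 7 d and 0.02 ± 0.0767 from 7 d to 14 d (SE, no test). The drop over the first 2 d was thus of like size in both treatments. Between 7 d and 14 d the GR24 libraries overlapped while those of acetone did not. Whether the GR24 ratio differed between times was not tested.

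**Figure D2:**
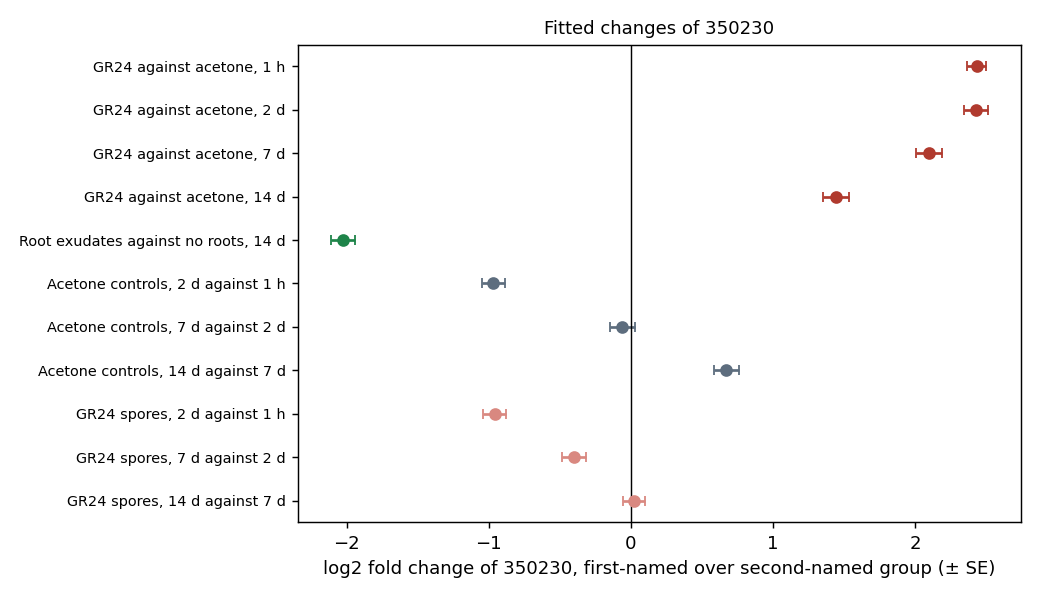
Log2 fold change of Gloin1_350230 (horizontal axis, first-named over second-named group, bars ± SE) in each comparison. The 4 GR24 values lie between 1.44 and 2.43, the value for the titled root exudates is -2.03, and the steps from 1 h to 2 d are -0.97 in acetone and -0.96 in GR24.

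Levels of different genes were compared as RPKM, the count of a gene scaled by library total and gene length, without TMM scaling,, which the authors deposited. The RING-type list held 115 other models found by keyword, of which 95 carry a RING entry among their domains, 20 only matched by name (cullins among them) and 109 had at least 1 read. With 550 RPKM (mean of 3 libraries), Gloin1_350230 ranked 4 of the 116 RING-type models in GR24 at 1 h and made up 5.67% of their summed RPKM. It ranked 23 of 116 in acetone at 1 h, with 105 RPKM and 1.17% of the sum. In acetone at 7 d it ranked 58, with 52.2 RPKM and 0.542% of the sum. It ranked 45 in the libraries titled root exudates and 4 in those titled no roots, ranks that change places if the headings are right.

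Averaged over all libraries, Gloin1_350230 was the tenth most abundant model of the RING-type list, at 202 RPKM. Its highest library (565.5 RPKM) was 11.0 times its lowest (51.3 RPKM). The 9 models above it varied less, a description since Gloin1_350230 was proposed with its GR24 response known. Model Gloin1_335891, which has a RING and a C6HC zinc finger, averaged 795 RPKM with a ratio of 1.65 between its highest and lowest libraries. Model Gloin1_123841, whose best match is RBX1, the RING subunit of cullin-RING ligases, averaged 649 RPKM with a ratio of 1.26. The most variable of the 9 was Gloin1_346472, annotated as a predicted E3 ligase, at 507 RPKM with a ratio of 6.43. Its pattern was unlike that of Gloin1_350230: it averaged 154 RPKM in GR24 at 1 h and 160 RPKM in acetone at 1 h, but 927 RPKM in GR24 and 644 RPKM in acetone at 7 d. The other 6 models averaged between 205 and 330 RPKM. They were Gloin1_303180, Gloin1_349270, Gloin1_338740, Gloin1_346584, Gloin1_346183 and Gloin1_198063. Of these, the cullin Gloin1_338740 and Gloin1_346183, with FYVE-type zinc fingers, list no RING domain.

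The other RING-type models were counted beside all models in each comparison. At 1 h, 10 of the 99 tested were higher with GR24 and 2 lower, against 7.05% and 3.39% of all models, and the median log2 fold change was 0.02 beside -0.0056 for all models. At 2 d, 1 of 100 was higher and 2 were lower, against 1.02% and 1.13%. At 7 d, 9 of 99 were higher and 1 lower, against 4.31% and 2.12%. At 14 d, 1 of 96 was higher and none lower, against 1.29% and 1.95%; for the lower direction, edgeR's quasi-likelihood test gave 0 models after adjustment and 1 at an unadjusted p under 0.05, and DESeq2 gave 0. In the root set, 7 of 100 were higher and 8 lower in the libraries titled root exudates, shares near those of all models. The median log2 fold change there was 0.04 beside -0.0079 for all models. Some of the passing models list no RING domain. At 1 h these were Gloin1_220747 and the cullin Gloin1_339553. In the root set they were Gloin1_261273, Gloin1_27761, Gloin1_346183, Gloin1_349839 and Gloin1_98066. The count at 2 d depended on single libraries: it was 1 without GR24 replicate 1 or 3, 6 without acetone replicate 2, and 0 without acetone replicate 3, with 7 at an unadjusted p under 0.05. Of the 115 models, 22 passed in at least 1 GR24 comparison. The share of all models that did so is not given here, so nothing about the RING-type list is read from this number. At 14 d the count was 2 without any 1 of the acetone libraries. The 15 of the root set became 7 without no-roots replicate 1 and 6 without replicate 2.

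In each GR24 comparison, Gloin1_350230 had the largest log2 fold change of the RING-type models tested, a description since it was picked with this in view. The highest other value was 1.17 at 1 h (Gloin1_22077), 0.77 at 2 d (Gloin1_346472), 1.52 at 7 d (Gloin1_8063) and 0.69 at 14 d (Gloin1_262392, which did not pass). In the root set, the RING-type models Gloin1_12227 and Gloin1_188968 had log2 fold changes of -2.22 and -2.04, past the -2.03 of Gloin1_350230.

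**Figure D3:**
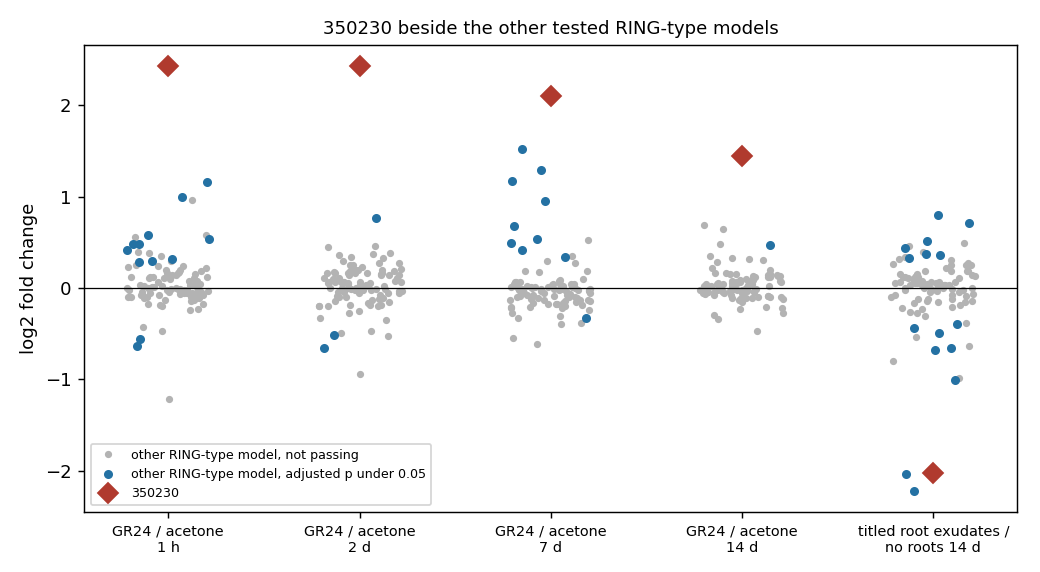
Log2 fold change (vertical axis) of Gloin1_350230 (red diamonds) and of the other tested RING-type models (points) in the 5 treatment comparisons; blue points have an adjusted p under 0.05. The diamond lies above every point in the 4 GR24 comparisons, at 1.44 to 2.43, and at -2.03 in the root set, where the points reach -2.22.

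Single RING-type models did rise or fall, with adjusted p-values from edgeR's quasi-likelihood test. At 1 h, Gloin1_22077 rose to 103 ± 7.40 CPM with GR24 (SD, n = 3), against 46.2 ± 4.31 CPM with acetone (SD, n = 2; log2 fold change 1.17 ± 0.098 SE, adjusted p = 3.42e-10). Model Gloin1_51120, whose best match is RNF167, a membrane-bound E3 ligase of mammals, rose to 152 ± 15.0 CPM, against 76.9 ± 1.36 CPM (1.00 ± 0.0862, adjusted p = 5.41e-10). Model Gloin1_195132, with SWIM and RING zinc fingers, rose by 0.58 ± 0.0918 (adjusted p = 3.16e-05). Model Gloin1_188968, with RING and C2H2 zinc fingers, had a log2 fold change of -0.63 ± 0.0924 (adjusted p = 9.69e-06). None of these changes was larger than that of Gloin1_350230 at the same time.

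At 2 d the passing RING-type models were Gloin1_346472, at 0.77 ± 0.132 (adjusted p = 0.0245), Gloin1_334327, at -0.66 ± 0.143 (adjusted p = 0.0233), and Gloin1_148993, at -0.51 ± 0.109 (adjusted p = 0.0256). Each of these calls ended without acetone replicate 3, where the adjusted p-values were 0.117, 0.106 and 0.156. Those of Gloin1_334327 and Gloin1_148993 also ended without GR24 replicate 1 (0.087 and 0.0907) or 3 (0.261 and 0.327). With limma on log2(RPKM + 0.1) the adjusted p-values of all 3 were above the threshold, at 0.0574, 0.0923 and 0.115.

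At 7 d, model Gloin1_8063, in an orthologous group named for synaptonemal complex formation, rose to 13.6 ± 2.34 CPM with GR24, against 4.64 ± 0.824 CPM with acetone (SD, n = 2 each; 1.52 ± 0.249 SE, adjusted p = 1.1e-05). Model Gloin1_112765, with ubiquitin-like, PHD, SRA and RING domains as in the UHRF proteins that bind methylated DNA in mammals, rose to 88.7 ± 5.57 CPM, against 36.4 ± 0.708 CPM (1.29 ± 0.119, adjusted p = 4.39e-12). Models Gloin1_341998 and Gloin1_342021, annotated as RAD18, an E3 ligase of DNA damage bypass in yeast, rose by 1.17 ± 0.255 (adjusted p = 0.00106) and 0.96 ± 0.206 (adjusted p = 0.000906). The call of Gloin1_341998 ended without GR24 replicate 2, at 0.92 and an adjusted p of 0.0618, and with limma on log2(RPKM + 0.1), at 0.0793. At 14 d the passing RING-type model was Gloin1_346472, at 287 ± 6.22 CPM with GR24 and 207 ± 4.43 CPM with acetone (SD, n = 3 each; 0.47 ± 0.046 SE, adjusted p = 9.21e-07).

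In the root set, Gloin1_12227, with ubiquitin-like and RING domains, fell to 2.54 ± 0.141 CPM with root exudates (SD, n = 3), against 11.9 ± 2.72 CPM with no roots (SD, n = 2; -2.22 ± 0.259 SE, adjusted p = 0.000306). Model Gloin1_188968 fell to 59.0 ± 9.17 CPM, against 241 ± 87.3 CPM (-2.04 ± 0.287, adjusted p = 0.0206). That call ended without root exudate replicate 1 (adjusted p = 0.113) or 3 (0.0851), and with replicate number as a block (0.206) or no filter (0.0508). Model Gloin1_349839 had a log2 fold change of -1.01 ± 0.219 (adjusted p = 0.0103), which ended without no-roots replicate 2 (adjusted p = 0.121). Model Gloin1_340224 rose by 0.80 ± 0.139 (adjusted p = 0.00307).

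The models closest to Gloin1_350230 by annotation had no GR24 response like its own. These 4 models were picked by their descriptions, as carrying the Lon N-terminal domain or belonging to the same orthologous group. Model Gloin1_15134, of 2022 bases, is listed with the same pair of domains and the same group, and its best match is a LONRF protein. It was far less abundant, between 6.55 RPKM in GR24 at 1 h and 17.0 RPKM in no roots (group means), and none of its GR24 differences passed. At 1 h it held 6.55 ± 0.629 RPKM with GR24 (SD, n = 3) and 7.28 ± 0.802 RPKM with acetone (SD, n = 2), at -0.10 ± 0.178 on the log2 scale (SE, adjusted p = 0.818). In the libraries titled root exudates it fell to 10.3 ± 1.18 RPKM (SD, n = 3), against 17.0 ± 3.49 RPKM in no roots (SD, n = 2; -0.65 ± 0.168 SE, adjusted p = 0.0234). That call ended without root exudate replicate 2 (adjusted p = 0.0849) or no-roots replicate 2 (-0.43, adjusted p = 0.259), and with limma on log2(RPKM + 0.1) (0.0902). The direction was that of Gloin1_350230 in the same libraries. In acetone it rose from 1 h to 2 d by 0.56 ± 0.145 (SE, adjusted p = 0.00221), the step in which Gloin1_350230 had -0.97; without acetone 1 h replicate 2 this was 0.46 with an adjusted p of 0.0625.

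Model Gloin1_77605, of 897 bases, is in the same orthologous group and lists the RING domain without the Lon domain. At 1 h it fell to 38.5 ± 1.09 RPKM with GR24 (SD, n = 3), against 58.5 ± 0.838 RPKM with acetone (SD, n = 2; -0.56 ± 0.108 SE, adjusted p = 0.0005). At 2 d and 14 d its values of 0.36 ± 0.139 and -0.21 ± 0.0952 did not pass (adjusted p = 0.218 and 0.361), although they passed with no filter on low counts (0.0229 and 0.0025), and at 14 d also with the replicate block (0.0377). At 7 d it had 175 ± 3.70 RPKM with GR24 and 214 ± 11.1 RPKM with acetone (SD, n = 2 each; -0.33 ± 0.088 SE, adjusted p = 0.0112), a call that ended without acetone 7 d replicate 2 (adjusted p = 0.316) and with limma on log2(RPKM + 0.1) (0.139). In the libraries titled root exudates it rose to 216 ± 18.2 RPKM (SD, n = 3), against 158 ± 22.6 RPKM in no roots (SD, n = 2; 0.52 ± 0.107 SE, adjusted p = 0.0091), which ended without no-roots replicate 1 (adjusted p = 0.119). Over time in acetone it rose by 1.67 ± 0.114 from 2 d to 7 d (adjusted p = 9.33e-10), and by 0.32 ± 0.11 from 7 d to 14 d (adjusted p = 0.0432), which ended without either acetone library of 7 d (0.234 and 0.103) and without replicate 1 or 2 of 14 d (0.135 and 0.0722), with limma (0.0521) and with the block (0.0657). At 1 h and in the root set, Gloin1_77605 thus moved in the direction opposite to Gloin1_350230.

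The full Lon proteases Gloin1_334646, of 2553 bases, and Gloin1_343929, of 3426 bases, are both annotated as mitochondrial. Over the 10 group means they stayed between 53.9 and 68.4 RPKM and between 67.4 and 94.6 RPKM, in that order. Neither passed in any of the 5 treatment comparisons, where their log2 fold changes lay between -0.14 and 0.18. In acetone, Gloin1_343929 rose by 0.18 ± 0.0597 (SE) from 2 d to 7 d (adjusted p = 0.0227), a call that ended without acetone 2 d replicate 2 (0.0881) or 7 d replicate 2 (0.339), with no filter (0.07), with limma (0.136) and when only those libraries were fitted (0.052).

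**Figure D4:**
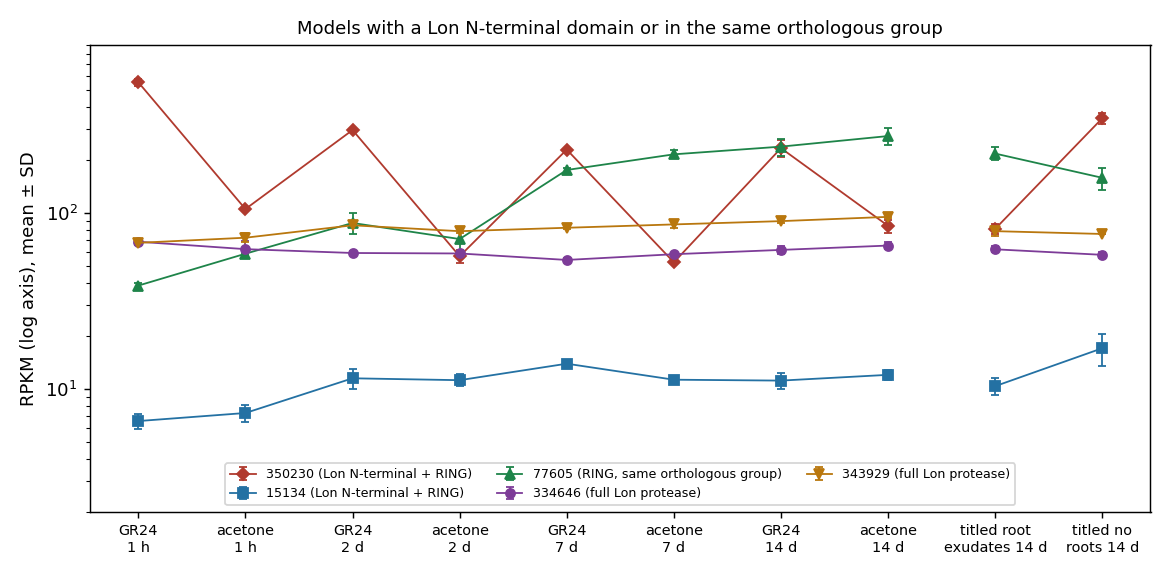
RPKM (log axis, group mean ± SD) of Gloin1_350230 and of the 4 models that share its orthologous group or the Lon N-terminal domain. Gloin1_350230 has 550 RPKM with GR24 and 105 RPKM with acetone at 1 h and is higher with GR24 at each later time, while Gloin1_15134 stays between 6.55 and 17.0 RPKM and the 2 full Lon proteases between 53.9 and 94.6 RPKM.

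The ubiquitin pathway as a whole was read from lists by keyword, 587 models besides Gloin1_350230. These include the 115 RING-type models counted above, so the joint shares are not independent of theirs. At 1 h, 35 of 457 tested were higher with GR24 and 21 lower, 7.66% and 4.6% beside 7.05% and 3.39% of all models. At 2 d, 3 and 4 of 473 were 0.634% and 0.846%, beside 1.02% and 1.13%. At 7 d, 21 and 7 of 469 were 4.48% and 1.49%, beside 4.31% and 2.12%. At 14 d, 4 and 4 of 457 were 0.875% each, beside 1.29% and 1.95%. For root exudates, 30 and 42 of 479 were 6.26% and 8.77%, beside 7.46% and 7.75%. The shares of the lists together were thus near those of all models.

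Over the 5 treatment comparisons and both directions, 7.52% of all tests passed, a pooled share against which the lists can be read. The 5 E1 models gave 0 calls in 23 tests by edgeR's quasi-likelihood test, with 2 at an unadjusted p under 0.05 and 0 by DESeq2. The E2 list passed in 14 of 221 tests (6.33%), HECT ligases in 1 of 39 (2.56%) and U-box ligases in 2 of 41 (4.88%). The cullin and SKP1 list passed in 1 of 55 (1.82%); it leaves out 9 cullins that the keywords put in the RING-type list, of which Gloin1_339553, whose best match is Cullin 1, rose at 1 h by 0.48 ± 0.1 (SE, adjusted p = 0.00119). The F-box list passed in 44 of 562 tests (7.83%), deubiquitinating enzymes in 11 of 226 (4.87%) and the proteasome list in 11 of 329 (3.34%).

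The ubiquitin and ubiquitin-like models had the highest share, 46 of 345 tests (13.3%). Of 73 tested in the root set, 15 were lower with root exudates (20.5%, beside 7.75% of all models) and 6 higher (8.22%, beside 7.46%). At 1 h, 7 of 67 were higher (10.4%, beside 7.05%) and 8 lower (11.9%, beside 3.39%). No test was made of whether a list differed from all models.

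At 1 h the members that moved furthest were few-read or ubiquitin-like models. The F-box-like model Gloin1_24879 had 3.13 ± 0.338 CPM with GR24 (SD, n = 3), against 0.459 ± 0.114 CPM with acetone (SD, n = 2). It passed the low-count filter only through the GR24 libraries, so its log2 fold change of 2.73 ± 0.537 (SE) is given without a p-value. Model Gloin1_13096, with a ubiquitin domain, rose to 43.1 ± 5.63 CPM, against 7.71 ± 1.46 CPM (2.49 ± 0.169, adjusted p = 2.94e-12). Another with a ubiquitin domain, Gloin1_68287, fell to 4.75 ± 1.75 CPM, against 17.2 ± 1.56 CPM (-1.86 ± 0.235, adjusted p = 9.87e-07). The proteasome regulator PI31 model Gloin1_350018 averaged 0.968 CPM with GR24 and 3.22 CPM with acetone, with a log2 fold change of -1.71 ± 0.450 (SE). The filter likely kept it through acetone alone, so no p-value is given. Its value was -1.85 without acetone replicate 2 and -1.56 without replicate 3.

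At 2 d the passing members besides the RING-type models include Gloin1_71023, an RWD-domain model listed with the E2 enzymes, at -0.69 ± 0.149 (adjusted p = 0.0233), and the F-box model Gloin1_28505, at -0.63 ± 0.124 (adjusted p = 0.0181). Both calls ended without GR24 replicate 3 (adjusted p = 0.355 and 0.283) or acetone replicate 3 (0.157 and 0.106), and with limma (0.0743 and 0.104). At 7 d, Gloin1_217994, a model whose best match is a PCI-domain proteasome component of a slime mould, rose to 14.7 ± 3.25 CPM with GR24, against 3.72 ± 1.27 CPM with acetone (SD, n = 2 each; 1.90 ± 0.261 SE, adjusted p = 3.18e-07). It also rose at 14 d, by 1.49 ± 0.136 (adjusted p = 4.5e-07). The SUMO protease model Gloin1_25943 rose at 7 d by 1.82 ± 0.168 (adjusted p = 4.79e-12). The E2 model Gloin1_40816, whose best match is an E2 T-like enzyme of an animal, rose at 7 d by 1.61 ± 0.264 (adjusted p = 1.18e-05).

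At 14 d the F-box model Gloin1_35325 rose by 0.58 ± 0.118 (adjusted p = 0.00553), a call that ended with limma on log2(RPKM + 0.1) (0.0708), and of the ubiquitin-domain models Gloin1_22168 rose by 0.53 ± 0.0759 (adjusted p = 0.000164). The ubiquitin-domain model Gloin1_337709 had -0.57 ± 0.141 (adjusted p = 0.0223), a call that ended without GR24 replicate 2 or 3 (0.062 and 0.0954) and without acetone replicate 1 or 2 (0.0796 and 0.0639). In the root set, the otubain model Gloin1_78150, of a family that removes ubiquitin, had 0 reads in the 3 libraries titled root exudates and 40 reads in the 2 titled no roots. Taking 3 reads over the group as the floor, it was at least 18.2-fold lower with root exudates on the TMM-scaled CPM. The F-box list members Gloin1_330663 and Gloin1_331451 averaged 0.244 and 0.380 CPM with root exudates, against 7.47 ± 5.85 and 9.44 ± 6.20 CPM with no roots (SD, n = 2). They passed the low-count filter only through the no-roots libraries. Their log2 fold changes of -4.76 ± 0.806 and -4.69 ± 0.797 (SE) are therefore given without a p-value. The F-box list member Gloin1_19222, at 14.8 CPM with root exudates and 112 CPM with no roots, also fell (-2.93 ± 0.384, adjusted p = 0.0151). The call of Gloin1_19222 ended without root exudate replicate 1 or 3 (0.114 and 0.0887), and with the block (0.158).

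The models whose level followed Gloin1_350230 most closely included methyltransferases and cytochrome P450 enzymes. Over the 20 time-course libraries, 16221 models were ranked by Pearson's r of log2(CPM + 0.5); a pair of models shares the treatment, time and depth of each library, and r is a description. The median r was -0.03, and 8 models exceeded 0.9. None of the 10 highest was in a ubiquitin list, which is near the 3.05% of ranked models that are. For 2 of the 10 no domain or orthologous group is listed. In order, they began with Gloin1_349160 (r = 0.944), which has no description, Gloin1_21961 (0.937), with WD40 repeats, and the type 11 methyltransferases Gloin1_20845 (0.937) and Gloin1_79000 (0.923). Next came Gloin1_337251 (0.920), a UDP-sugar transferase, Gloin1_345126 (0.919), a cytochrome P450, and Gloin1_94170 (0.911), a type 11 methyltransferase. Last were Gloin1_10023 (0.902), a cytochrome P450, Gloin1_204502 (0.899) and Gloin1_54640 (0.891), a cytochrome P450. Model Gloin1_204502 has no domain listed, and it matches the same hypothetical Fusarium protein as Gloin1_337251. The next model outside the 10 had 0.888. Type 11 methyltransferases transfer methyl groups from S-adenosylmethionine, and cytochrome P450 enzymes oxidise small molecules. Among the 102 ranked RING-type models the highest r was 0.721, of Gloin1_195132, and 10 exceeded 0.5.

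The 10 models differed in size of response. At 1 h the methyltransferase Gloin1_20845 averaged 495 CPM with GR24 and 10.9 CPM with acetone. The undescribed Gloin1_349160 averaged 176 CPM with GR24 and 34.1 CPM with acetone, a ratio nearer to that of Gloin1_350230. Models Gloin1_21961, Gloin1_94170 and Gloin1_10023 averaged at most 6.15 CPM in any group, so their r rests on few reads.

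The root set took no part in this ranking. Of the 10 models, 7 could be tested there and each had a negative log2 fold change, as had Gloin1_350230. The median over all tested models was -0.0079. Of the 7, 5 passed, and 7.75% of all tested models passed as lower. The count is not weighed against that share, since the filter set or may have set the sign of some of the 5. The 5 include Gloin1_79000, at 0.896 CPM with root exudates and 8.13 CPM with no roots (means). It passed the low-count filter only through the no-roots libraries, so its negative sign was close to fixed. The same may hold for Gloin1_337251, at 1.10 and 5.81 CPM. Model Gloin1_349160 fell to 11.2 ± 2.00 CPM in the libraries titled root exudates (SD, n = 3), against 38.3 ± 12.1 CPM in no roots (SD, n = 2; -1.78 ± 0.223 SE, adjusted p = 0.000626). The UDP-sugar transferase Gloin1_337251 had -2.43 ± 0.404 (SE), given without a p-value because the filter may have kept it through no roots alone. The P450 Gloin1_345126 had -1.59 ± 0.247 (adjusted p = 0.0028). The methyltransferase Gloin1_79000 had -3.14 ± 0.561 (SE), given without a p-value because of the filter, and -2.13 without no-roots replicate 1. The P450 Gloin1_54640, at -0.89 ± 0.231 (adjusted p = 0.0244), lost it without root exudate replicate 2 or 3 (0.0777 and 0.0532) or no-roots replicate 1 (-0.51, adjusted p = 0.338). The methyltransferase Gloin1_20845 averaged 3.83 ± 1.65 CPM with root exudates and 38.5 ± 28.1 CPM with no roots, and its -3.31 ± 0.704 did not pass by edgeR's quasi-likelihood test (adjusted p = 0.0591). It passed with DESeq2 (0.000282), limma on log2(RPKM + 0.1) (0.0137) and the replicate block (6.04e-06), and without either no-roots library, at -2.26 without replicate 1 (adjusted p = 0.00698) and -3.91 without replicate 2 (adjusted p = 6.23e-05). Model Gloin1_204502 had -0.10 ± 0.191 (adjusted p = 0.771).

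**Figure D5:**
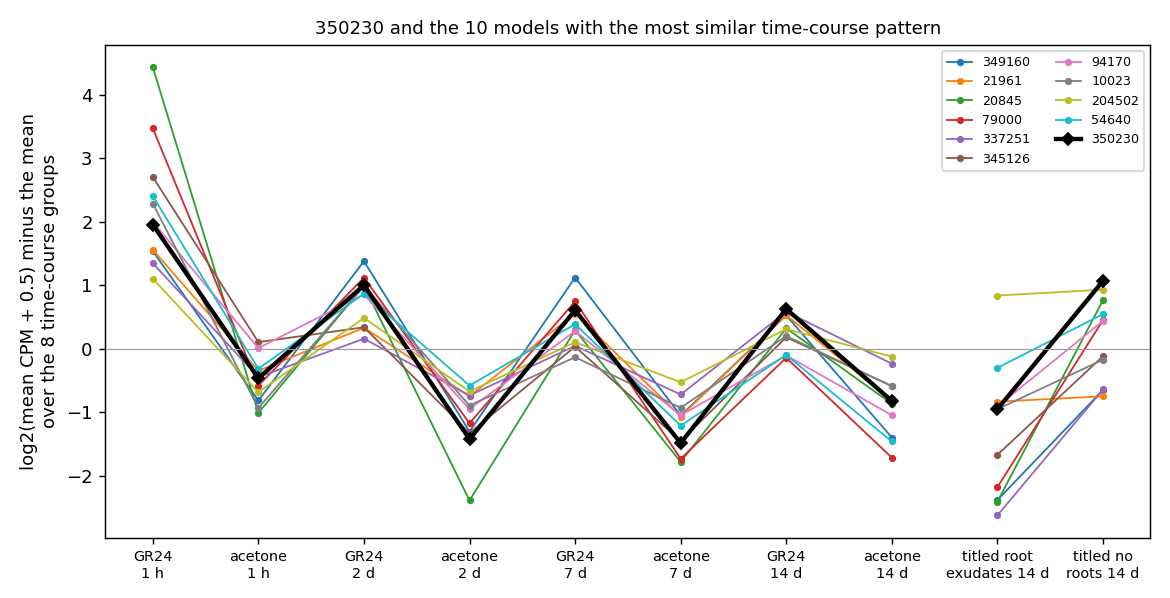
Group mean level (log2(CPM + 0.5), less the mean over the 8 time-course groups) of Gloin1_350230 (black diamonds) and of the 10 models with the highest Pearson's r to it over the 20 time-course libraries. The lines rise and fall together between GR24 and acetone by choice. In the root set, which was not used, 7 of the 10 could be tested and 5 passed as lower in the titled root exudates. These include Gloin1_79000, which passed the low-count filter only through the no-roots libraries, and Gloin1_337251, for which the same may hold.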

How the data were processed

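The authors deposited 5 tables of RNA-seq gene values on JGI models, 1 per comparison, with total and unique read counts, RPKM and gene length per library, per the file headers. A deposited signed fold change (a score column) from weighted proportions was copied, not tested. The aligner is not given in the sources used here, and no model matched the reference table of names, so no sequence is shown. Total gene read counts were fitted with edgeR 4.0.16 (TMM, filterByExpr, robust quasi-likelihood, R 4.3.3), with SE as the absolute log2 fold change over the root of F and Benjamini-Hochberg adjustment at 0.05. Treatment comparisons used their own libraries, and time steps used 1 model over the 20 time-course libraries. The design had tests of Gloin1_350230 in the root set and the acetone steps; these p-values are not given because the values of all libraries were known when it was chosen. Alternatives were DESeq2 1.42.0, RLE scaling, no filter, unique reads, limma 3.58.1 on log2(RPKM + 0.1), a replicate block and leaving out each library. The code was tested on simulated data. Replicates of a group were not duplicates. The members and lists were chosen with earlier results of these data known. Named genes were Gloin1_350230, the 10 most alike, the 10 most abundant RING-type models and, per treatment comparison, up to 4 passing list members with the largest change among RING-type and among all lists; the Lon models were added later.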

Additional observations from a re-analysis of the deposited data

How the results depend on the processing

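The direction of Gloin1_350230 in the 5 treatment comparisons held under every alternative run. At 7 d its log2 fold change moved past the spread between replicates with limma on log2(RPKM + 0.1), to 2.13, and ranged from 2.07 to 2.11 with 1 library left out. The acetone step from 2 d to 7 d ranged from -0.12 to 0.014 with 1 library left out, changing sign without acetone 2 d replicate 1. The RING-type count at 2 d was 7 with no filter, 7 with a replicate block and 0 to 6 with 1 library left out, against 3. At 14 d it was 2 with DESeq2, 6 with no filter, 2 with the block and 1 to 2 with 1 library left out, against 1. The root count ranged from 6 to 16, against 15. DESeq2 gave 17 models over all ubiquitin lists at 7 d, against 28. Of the 10 models most alike, 6 stayed when all 25 libraries were used and 8 by Spearman's rho. Some small differences that failed their test changed sign. With 1 library left out, Gloin1_343929 ranged from -0.0101 to 0.126 for acetone 2 d against 1 h and from -0.118 to 0.0084 for GR24 at 1 h. Gloin1_15134 ranged from -0.215 to 0.0076 for GR24 at 1 h and from -0.0462 to 0.175 at 2 d, and Gloin1_204502 from -0.219 to 0.0686 in the root set. With limma, Gloin1_334646 had -0.0135 for acetone 7 d against 2 d. The cause was not tested. Replicate numbers showed no sign of pairing samples. Deviations from the group mean correlated at 0.0091, -0.03 and 0.0129 for GR24 against acetone at 14 d. Over all comparisons these correlations lay between -0.0786 and 0.0633. Such values, from 2 or 3 libraries per group, do not settle whether samples were paired. The block could not be fitted at 7 d. With 2 or 3 libraries per group, a lone library left in a group was assumed to vary like the other groups.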
